A study of Mus musculus with 18 samples.

Results

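Kbtbd12, Coq8a and Arpp19 are 3 mouse genes in which the muscle of HSA-LR mice gained a stretch of RNA that was scarce in WT muscle, with 1 WT library as an exception for Arpp19. They were chosen by the share of their counts that fell in 1 exon bin in HSA-LR against WT mice: bin 007 of Kbtbd12, bin 033 of Coq8a and bin 015 of Arpp19. An exon bin is a piece of exon between neighbouring exon ends of the annotation. The 3 genes hold 98 of the 391858 bins and are 3 of the 46725 genes in the files. Because HSA-LR against WT made the choice, that contrast is described below without a test.

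Libraries came from the gastrocnemius and the quadriceps of 9 mice of the FVB strain aged 20 weeks, in 3 groups of 3 mice. WT mice carried no transgene. HSA-LR mice carried a human skeletal actin transgene whose 3′ UTR carries expanded CTG repeats and which is transcribed in skeletal muscle, so the repeat RNA comes from a transgene and not from Dmpk, the gene that carries the repeat in patients. The treated mice were HSA-LR mice injected intravenously with Pip6a-PMO, an antisense morpholino oligomer of CAG repeats joined to the Pip6a peptide. The sources used here do not tie a dose to the sequenced mice. The labels call the other mice untreated, while the treatment note names saline as the alternative injection, both at 160 µL per mouse. Each mouse gave both muscles, which makes 18 libraries of polyA-selected, stranded RNA.

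In myotonic dystrophy, CUG-repeat RNA holds muscleblind proteins in nuclear foci, and exons that these proteins control are then spliced in another pattern. KBTBD12 belongs to the BTB-kelch proteins, of which many serve as substrate adaptors of CUL3 ubiquitin ligases. COQ8A is an atypical kinase-like protein of mitochondria needed for the synthesis of coenzyme Q. ARPP19 is a small phosphoprotein that, once phosphorylated by the Greatwall kinase, inhibits the phosphatase PP2A-B55, and ARPP-16 is its shorter form, known from striatal neurons.

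The sequences below show what each gained stretch holds, as read from the GENCODE M21 transcripts on GRCm38. Kbtbd12 (ENSMUSG00000033182.12, minus strand, chr6:88545114-88637950) has bin 007 at chr6:88613751-88613893, found in the retained-intron transcript Kbtbd12-203 alone. It runs on from the exon of bin 008 without a gap, so it is intron for the coding transcript Kbtbd12-202. The capitals mark the GT that begins the intron and the first stop codon in the reading frame of Kbtbd12-202.

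Kbtbd12 bin 007: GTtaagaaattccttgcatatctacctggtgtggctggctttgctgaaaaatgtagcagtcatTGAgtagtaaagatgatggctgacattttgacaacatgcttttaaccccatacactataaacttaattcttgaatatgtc

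Reading through would add 21 codons to the 445 codons that precede the boundary, against 625 codons in Kbtbd12-202. Coq8a (ENSMUSG00000026489.13, minus strand, chr1:180165238-180199602) has bin 033 at chr1:180179500-180179592, a whole exon of 93 bases. It occurs in Coq8a-204 alone, a transcript annotated as a target of nonsense-mediated decay. The coding part is printed with its stop codon in capitals.

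Coq8a bin 033 coding part: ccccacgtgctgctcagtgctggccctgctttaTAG

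Coq8a-204 has 70 codons before this stop, against 645 codons in Coq8a-201. Arpp19 (ENSMUSG00000007656.13, plus strand, chr9:75037614-75060313) has bin 015 at chr9:75052051-75052232. This is the start of the first exon of Arpp19-203, lies in its 5′ UTR and is in no other transcript. It runs into bin 016, which most other Arpp19 transcripts reach by splicing from an exon that ends with bin 010. The start codons of the long form (bin 010) and of Arpp19-203 (bin 016) are in capitals.

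Arpp19 bin 010: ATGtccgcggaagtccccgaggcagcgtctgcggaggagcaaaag

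Arpp19 bin 016: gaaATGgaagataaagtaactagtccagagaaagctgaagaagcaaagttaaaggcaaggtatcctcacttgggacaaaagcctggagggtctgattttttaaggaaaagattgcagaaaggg

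Arpp19-203 thus has 96 codons, as do 2 other annotated transcripts, and lacks the first 16 of the 112 codons of Arpp19-205. Muscleblind proteins bind short motifs such as TGCT. On the strand of the RNA and with overlaps counted, TGCT stood 5 times in Coq8a bin 033, 2 times in Kbtbd12 bin 007 and 1 time in Arpp19 bin 015. Of windows of the same length along the longest transcript of each gene, 0.150%, 20.8% and 63.1% held at least as many. CGCT, TGCC and CGCC, 3 related motifs, stood in none of the 3 bins. Counting all 4 motifs, 2.49%, 53.8% and 87.2% of windows held at least as many as Coq8a bin 033, Kbtbd12 bin 007 and Arpp19 bin 015. The polyadenylation hexamer AATAAA was not among the letters of the bins, and 6.14% of windows as long as Kbtbd12 bin 007 held it.

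Library totals were 98916844 to 143135976 bin counts. Summed over 10 genes, skeletal muscle fiber markers came to 160700 to 221400 CPM (counts scaled to an equal library total) in every library. Of these 10, edgeR called 2 higher and 0 lower in HSA-LR against WT gastrocnemius, and 1 higher and 3 lower in the quadriceps. In treated against HSA-LR mice, 3 were called higher and 2 lower in the gastrocnemius, and 3 higher and 0 lower in the quadriceps. Of all genes, 10% and 13.8% were called in that contrast. The 6 macrophage markers summed to 47.4 to 53.9 CPM in HSA-LR and 27.2 to 48.4 CPM in WT and treated gastrocnemius, and in the quadriceps to 55.9 to 69.5 against 23.1 to 40.2 CPM. Other markers differed between groups in the quadriceps. The 5 Schwann cell markers summed to 27.5 to 45.5 CPM in HSA-LR, 60.1 to 80.8 in WT and 39.1 to 69.2 in treated quadriceps, and edgeR called 5 of 5 lower in HSA-LR against WT. The 4 fibroblast markers were at 809.9 to 950.1, 506.8 to 641.8 and 588.6 to 806.8 CPM, with 3 of 4 called higher. The 5 endothelial markers were at 150.2 to 204.7, 214.8 to 292.8 and 160.7 to 256.4 CPM, with 4 of 5 called lower. For macrophages, 4 of 6 were called higher. Of all genes tested in the quadriceps, 20.3% were called in either direction. In the gastrocnemius, 1 of 6 macrophage and 1 of 4 fibroblast markers were called, both higher, and none of the Schwann cell or endothelial markers. There, 15.5% of all genes were called. The 6 adipocyte markers, at 126.9 to 1558 CPM over the libraries, and the 5 erythroid markers, at 79.9 to 3797 CPM, gave no call in either muscle, although 3 and 4 of them had an unadjusted p under 0.05 in the gastrocnemius. The part of these cells in the results was not tested. Counts of Ddx3y, Uty, Eif2s3y and Kdm5d, 4 genes of the Y chromosome, summed to 1.15 and 1.43 CPM in the gastrocnemius and quadriceps of WT mouse 3, which is labelled male. In WT mouse 2, labelled female, they summed to 154.0 and 181.5 CPM, so both mice went against their labelled sex. The other mice, all HSA-LR and treated mice among them, were labelled male and had 118.9 to 186.8 CPM. Results for the lead bins and gene sums are given without WT mouse 2 or 3 where that changes a call. Calls in HSA-LR against WT, on marker and list genes, were not refitted without them. In the gastrocnemius of treated mouse 3, counts lay farther toward the 3′ ends of genes (median log2 ratio of 5′ to 3′ bins -1.44) than in the other 17 libraries (-1.21 to -1.10). Nothing in the labels ties library preparation to batches. Each group held 3 mice, and p-values of tests within a muscle measure the spread between these mice.

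Kbtbd12 bin 007 was almost empty in WT muscle and held counts in every HSA-LR library. A share is of bin counts, in which a read pair that reaches over several bins counts in each, and not of transcripts. In the gastrocnemius, bin 007 took 0.0308%, 0.0233% and 0.0137% of the gene's counts in the WT mice, from 7, 6 and 3 counts. The HSA-LR mice had 0.574%, 0.879% and 0.625%, from 70, 95 and 61 counts, and the treated mice 0.0484%, 0.0308% and 0.050%. All 3 treated mice lay below all HSA-LR mice, and treated and WT mice overlapped.

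The quadriceps showed the same order of groups. WT mice had 0.0196%, 0.0163% and 0 of 18952 counts, the last of which allows a share of up to 0.0158%. HSA-LR mice had 0.529%, 0.598% and 0.801%, and treated mice 0.0346%, 0.0239% and 0.0273%. Here the treated mice lay below all HSA-LR and above all WT mice. The mean HSA-LR share was 30.6 times the WT mean in the gastrocnemius and 53.6 times in the quadriceps, where leaving out 1 WT mouse gave 35.7 to 78.6 times. Against the mean count of the flanking exon bins 008 and 006, bin 007 reached 13.8% ± 2.81 (SD, n = 3) and 13.2% ± 2.89 in HSA-LR mice.

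Single shares of such small counts are loose. The 95% Wilson interval of the highest WT share ran from 0.0149% to 0.0636%, and that of the lowest HSA-LR share from 0.399% to 0.700%. These intervals cover counting error only.

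**Figure D1:**
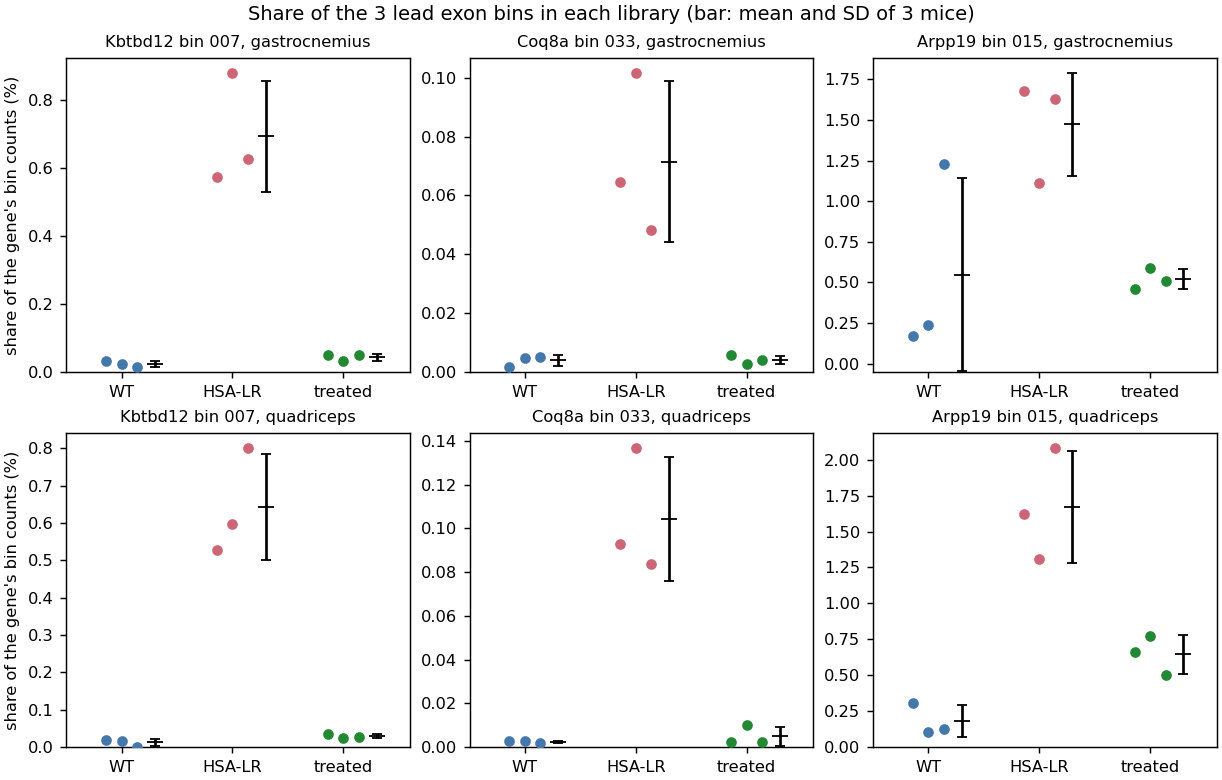
Share of the gene's bin counts (%, linear axis) that fell in each lead bin, by library. Each point is 1 mouse, the bar is the mean and SD of 3 mice, rows are muscles and columns are genes. HSA-LR mice stand above WT and treated mice in every panel except for WT mouse 3 in the Arpp19 gastrocnemius panel, at 1.23%.

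On treatment, bin 007 fell relative to its gene in both muscles. With edgeR's diffSpliceDGE, its log2 change against the rest of Kbtbd12 in treated against HSA-LR mice was -4.02 in the gastrocnemius (adjusted p = 4.47e-22). The quadriceps gave -4.48 (adjusted p = 2.39e-20). The HSA-LR libraries in this contrast are those that chose the bin. They also carried it past the filter on low counts, since WT and treated libraries held at most 10 counts. Part of the fall thus follows from the choice and the filter. The exact permutation test on the shares gave p = 0.1 in each muscle, which is the smallest that 3 mice against 3 allow. Against WT mice, which also entered the choice, the log2 changes of 0.87 and 1.15 did not pass the test (adjusted p = 1 in both).

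The bins on either side of bin 007 did not move alike. The 5′ part of the gene, bins 008 to 017, had 65.9 CPM in WT and 45.6 CPM in HSA-LR gastrocnemius on average, a ratio of 0.692. The 3′ part, bins 001 to 006, which holds the last 3 exons of Kbtbd12-202 and the retained-intron transcript Kbtbd12-205, had 107.7 and 43.9 CPM, a ratio of 0.408. In the quadriceps the ratios were 0.666 and 0.395. The 3′ part therefore took 61.7% to 62.5% of the gene's counts in WT gastrocnemius, 46.2% to 51.0% in HSA-LR and 61.5% to 68.0% in treated gastrocnemius. The highest of these was treated mouse 3, the library with the 3′ shift. In the quadriceps the ranges were 59.3% to 63.0%, 47.5% to 49.5% and 59.5% to 60.9%. HSA-LR mice overlapped neither other group, and treated against HSA-LR gave p = 0.1 in each muscle by the exact permutation test, the smallest possible. The exact test of treated against WT gave p = 0.7 and p = 0.4.

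**Figure D2:**
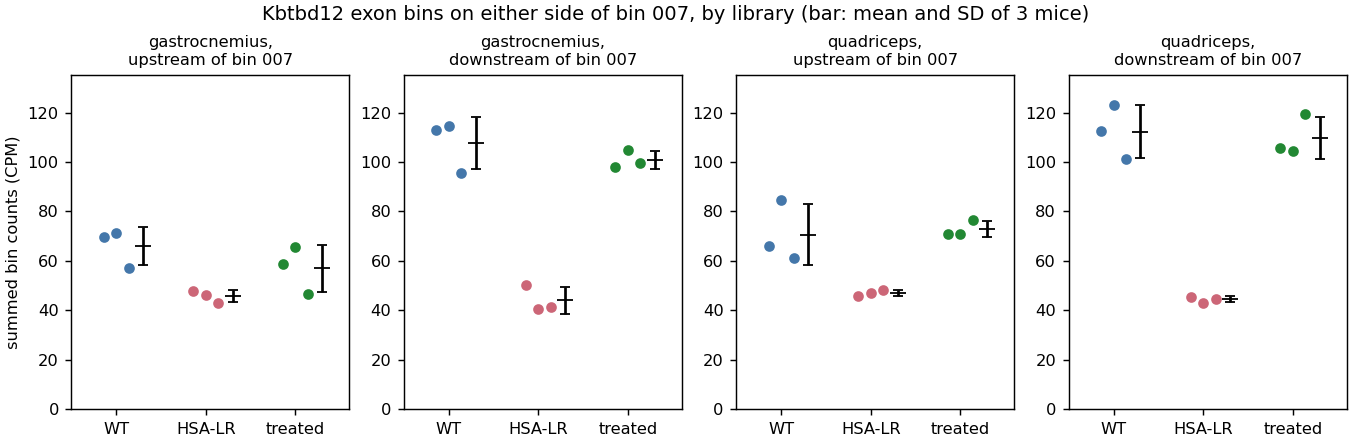
Summed counts (CPM) of the Kbtbd12 bins 5′ (upstream) and 3′ (downstream) of bin 007 in each library, with the mean and SD of 3 mice. HSA-LR libraries stand at 42.9 to 48.2 CPM upstream and 40.3 to 50.3 CPM downstream, while WT libraries stand at 95.5 to 122.9 CPM downstream.

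Coq8a bin 033 was the smallest of the 3 lead bins as a share of its gene. The WT gastrocnemius had 0.00177%, 0.00485% and 0.00505% of the gene's counts in this bin, from 2, 12 and 13 counts. HSA-LR mice had 0.0647%, 0.102% and 0.0481%, from 120, 127 and 60 counts, and treated mice 0.00559%, 0.00264% and 0.00387%. HSA-LR mice stood apart, and treated and WT mice overlapped.

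WT quadriceps had 0.00269%, 0.00263% and 0.00177%, from 4, 4 and 3 counts. HSA-LR quadriceps had 0.0927%, 0.137% and 0.0837%, and treated quadriceps 0.00241%, 0.00988% and 0.00210%. Treated mouse 2, with 22 counts, was above all WT mice, and the other two lay within their range. The mean HSA-LR share was 18.4 times the WT mean in the gastrocnemius and 44.2 times in the quadriceps. Even so, bin 033 reached only 3.28% ± 1.26 and 4.71% ± 1.25 (SD, n = 3) of the mean count of the flanking bins 035 and 032 in HSA-LR mice.

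In treated against HSA-LR mice, bin 033 fell by 3.97 on the log2 scale in the gastrocnemius (diffSpliceDGE, adjusted p = 5.62e-07). In the quadriceps it fell by 4.24 (adjusted p = 5.26e-21). As for Kbtbd12, part of the fall follows from the choice of the bin on the HSA-LR libraries. In the quadriceps these libraries, at 66 to 126 counts, also carried the bin past the filter on low counts. WT quadriceps held 3 to 4 counts and treated quadriceps 3 to 22. The changes against WT mice were 0.0028 and 1.19, with an adjusted p of 1 in both.

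Bin 034, an exon of 99 bases next to it, belongs to Coq8a-205 alone, whose reading frame closes after 71 codons and which is also annotated for nonsense-mediated decay. It had 17, 39 and 6 counts in HSA-LR, 1, 7 and 6 in WT and 1, 2 and 0 in treated gastrocnemius, and its share gave p = 0.1 for treated against HSA-LR by the exact permutation test, the smallest possible. The HSA-LR quadriceps had 7, 17 and 12 counts and the treated quadriceps 3, 17 and 0. All WT quadriceps had 0, which allows shares of up to 0.00177% to 0.00202%. Treated against WT passed the test there (diffSpliceDGE, adjusted p = 0.0209), with all but 3 of the treated counts in mouse 2. Without that mouse the adjusted p was 1, and it was 0.664, 0.167 and 0.391 without WT mouse 1, 2 or 3.

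The main body of Coq8a kept its proportions. Over the 44 other bins of at least 10 counts on average in the gastrocnemius, the mean HSA-LR share differed from the WT mean by -0.22 to 0.83 on the log2 scale, and over 42 in the quadriceps by -0.57 to 0.88. The highest value in each muscle was bin 017, a retained-intron piece at 0.0482% ± 0.0145 against 0.0272% ± 0.00898 (SD, n = 3) in the gastrocnemius. The lowest in the quadriceps was bin 040, the alternative first exon of Coq8a-217, at 0.10% ± 0.0191 in HSA-LR, 0.149% ± 0.0173 in WT and 0.157% ± 0.0460 in treated mice. Bin 040 did not pass the test in treated against HSA-LR mice (log2 change 0.70, adjusted p = 0.592).

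Arpp19 bin 015 was the most abundant of the gained stretches and the one with the least clear return. The WT gastrocnemius had 0.171%, 0.236% and 1.23%, from 13, 21 and 114 counts. HSA-LR mice had 1.68%, 1.11% and 1.63%, and treated mice 0.463%, 0.588% and 0.511%. WT mouse 3, labelled male but the only mouse with almost no Y-linked counts, lay within the HSA-LR range, with a 95% Wilson interval of 1.03% to 1.48%. Whether the sex of this mouse had a part was not tested. Its Kbtbd12 bin 007 was the lowest of all gastrocnemius libraries at 0.0137%, and its Coq8a bin 033 was within the range of the treated mice.

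The quadriceps of the same mouse was not high. WT quadriceps had 0.307%, 0.106% and 0.124%, HSA-LR quadriceps 1.62%, 1.31% and 2.08%, and treated quadriceps 0.664%, 0.771% and 0.498%. Here the 3 groups did not overlap, with treated mice between the others. The mean HSA-LR share was 9.35 times the WT mean in the quadriceps and 2.70 times in the gastrocnemius. Without WT mouse 3 the gastrocnemius value was 7.23 times, and without WT mouse 1 the quadriceps value was 14.6 times.

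In treated against HSA-LR mice, bin 015 fell by 1.51 on the log2 scale in the gastrocnemius (diffSpliceDGE, adjusted p = 5.94e-07) and by 1.39 in the quadriceps (adjusted p = 9.83e-05). Here too, part of the fall follows from the choice of the bin on the HSA-LR libraries. Against WT mice, which also entered the choice, bin 015 remained 1.86 higher in the quadriceps (adjusted p = 0.000238). Part of this difference can follow from that choice. In the gastrocnemius this difference was -0.12 (adjusted p = 1), but without WT mouse 3 it was 1.33 (adjusted p = 0.0954).

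The rest of Arpp19 rose with the bin rather than in its place. In the gastrocnemius, the bins upstream of it had 7.18 CPM in WT, 15.2 in HSA-LR and 8.23 in treated mice, and the bins downstream 55.7, 134.4 and 70.8 CPM. The HSA-LR to WT ratios were 2.12 and 2.42, and in the quadriceps 1.96 and 2.37. Bins 006 to 008, the 5′ ends of Arpp19-201, Arpp19-204 and Arpp19-206, took 1.07% ± 0.121 of the gene in HSA-LR, 0.787% ± 0.0927 in WT and 0.964% ± 0.105 (SD, n = 3) in treated gastrocnemius. Treated against HSA-LR gave p = 0.2 for this share and treated against WT p = 0.1 by the exact permutation test. In the quadriceps the share was 0.891% ± 0.0456 in HSA-LR, 0.774% ± 0.153 in WT and 0.797% ± 0.0165 (SD, n = 3) in treated mice, and the same tests gave exact p = 0.1 and p = 0.8.

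**Figure D3:**
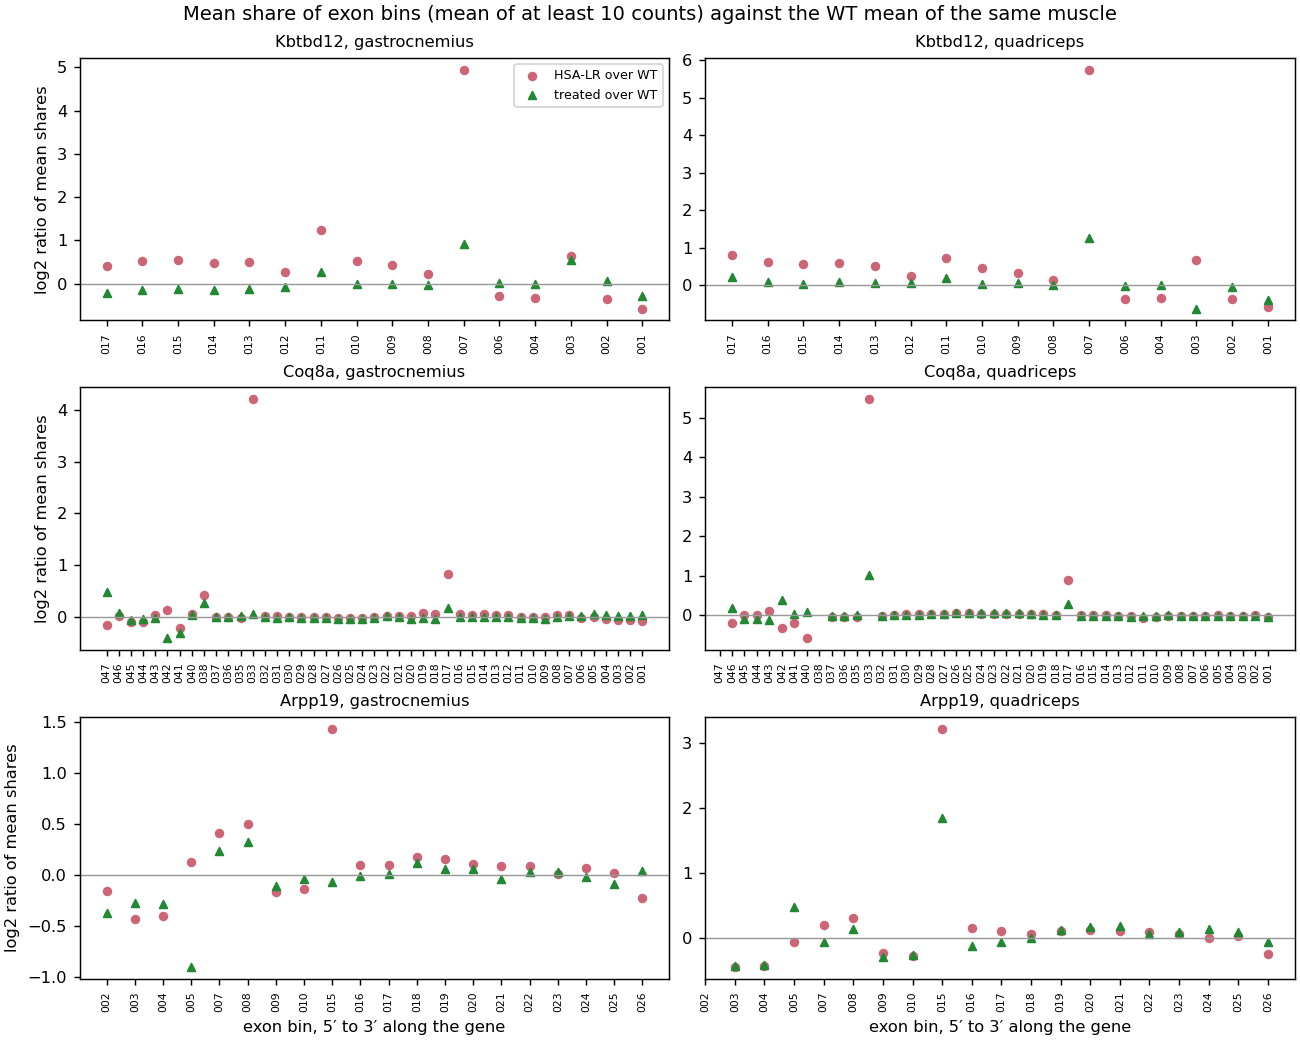
Log2 ratio of the mean share of each exon bin to the WT mean of the same muscle, with bins in 5′ to 3′ order, for bins with a mean of at least 10 counts. Circles are HSA-LR and triangles treated mice. The lead bins stand out in every panel, at 4.94 for Kbtbd12, 4.20 for Coq8a and 1.43 for Arpp19 in HSA-LR gastrocnemius, and Kbtbd12 is the gene whose other bins also split, positive 5′ and, bin 003 apart, negative 3′ of bin 007.

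With edgeR, few other bins of the 3 genes passed the test on treatment. In the gastrocnemius, 83 of the 98 bins were tested and 4 passed in treated against HSA-LR mice, all lower, where 0.309% of all tested bins passed in either direction. Besides the lead bins, this was Kbtbd12 bin 016, a coding bin near the 5′ end, with a log2 change of -0.70 (adjusted p = 0.0780). That call was lost in 6 of 9 fits without 1 mouse, the fit without WT mouse 2 among them, with adjusted p up to 0.637. Most Kbtbd12 bins leaned with the split of the gene, and 10 of its 16 tested bins in the gastrocnemius and 8 in the quadriceps had an unadjusted p under 0.05. In the quadriceps, the 3 lead bins were the ones edgeR called among 80 tested, against 0.168% of all bins. With limma's diffSplice, Kbtbd12 bins 002, 004 and 006, all 3′ of bin 007, were also called in both muscles, each higher. Bin 016 was not called by limma. Over all bins, limma called 1051 of 172719 in the gastrocnemius and 812 of 172858 in the quadriceps. As the lead bins were picked on the HSA-LR libraries, these counts are not read against the background.

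Treated against WT mice gave no call among the 83 bins in the gastrocnemius, with 1 bin at an unadjusted p under 0.05, and limma's diffSplice also called none. Across all bins, 0.0654% were called. In the quadriceps, 2 of 80 bins were called, Arpp19 bin 015 and Coq8a bin 034, both higher, where 0.0353% of all bins were called. The WT libraries in this contrast had also entered the choice of the lead bins.

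A position scale sets the mean share of WT mice at 0% and that of HSA-LR mice at 100%. The bins were chosen on these same means, so the choice can widen the gap and draw treated mice toward 0%. Treated mice lay at 3.05% ± 1.59 (SD, n = 3) for Kbtbd12 in the gastrocnemius and 2.64% ± 0.871 in the quadriceps. Coq8a lay at 0.204% ± 2.19 and 2.38% ± 4.32. Arpp19 lay at -2.78% ± 6.79 in the gastrocnemius and at 31.2% ± 9.23 in the quadriceps. The gastrocnemius value of Arpp19 was 24.9% without WT mouse 3. On a log2 scale of the shares the positions were larger, up to 26.5% for Kbtbd12 and 58.7% for Arpp19, both in the quadriceps.

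**Figure D4:**
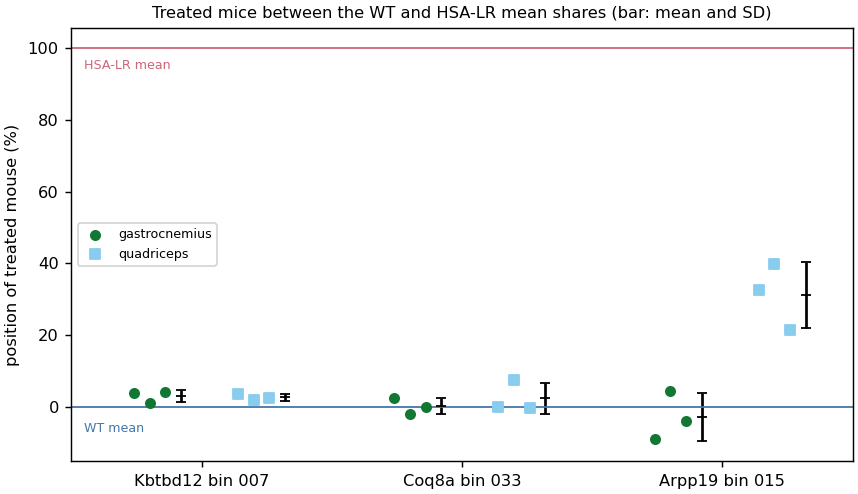
Position of each treated mouse (%) between the mean WT share (0) and the mean HSA-LR share (100) of the same muscle, with the mean and SD of 3 mice. Kbtbd12 and Coq8a lie between -1.86% and 7.37% in both muscles, and Arpp19 lies between 21.4% and 39.7% in the quadriceps. The WT and HSA-LR libraries that set the scale also chose the bins.

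Gene sums, the scaled counts of all bins of a gene, went in different directions. Kbtbd12 had 182.7, 185.7 and 152.7 CPM in WT, 98.8, 87.4 and 84.6 in HSA-LR and 156.6, 170.3 and 146.2 in treated gastrocnemius. The quadriceps gave 178.9, 207.4 and 162.3, then 91.8, 90.6 and 93.6, then 176.5, 175.4 and 196.2 CPM. HSA-LR mice thus held 0.520 and 0.503 times the WT mean, and overlapped neither other group.

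Arpp19 was higher in HSA-LR muscle. It had 61.1, 64.0 and 64.7 CPM in WT, 156.2, 141.3 and 158.6 in HSA-LR and 91.7, 78.9 and 67.9 in treated gastrocnemius. The quadriceps gave 54.3, 56.2 and 55.3, then 127.2, 121.3 and 142.2, then 69.7, 77.2 and 64.5 CPM. The 3 groups did not overlap in either muscle, with treated mice between the others. WT mouse 3, high in bin 015, had an ordinary gene sum.

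Coq8a varied widely in the gastrocnemius, with 909.5, 1780 and 1798 CPM in WT, 1503, 1010 and 1081 in HSA-LR and 1897, 1136 and 944.9 in treated mice. The groups overlapped. In the quadriceps it had 1305, 1290 and 1448 CPM in WT, 806.6, 744.4 and 664.1 in HSA-LR and 1453, 1866 and 1092 in treated mice, with HSA-LR below both other groups. The 6 slow-fiber markers (Myh7 and others) varied in the same libraries. They summed to 2018, 3650 and 4218 CPM in WT, 3423, 1587 and 2668 in HSA-LR and 11860, 2427 and 1815 in treated gastrocnemius. In the quadriceps they were at 143.8 to 395.8 CPM in WT, 82.2 to 182.4 in HSA-LR and 797.6, 1660 and 88.8 in treated mice. In treated against HSA-LR quadriceps, edgeR called 4 of these 6 markers higher and 0 lower, with a median log2 change of 3.97. All 6 had an unadjusted p under 0.05 there, and 13.8% of all genes were called. In the gastrocnemius 0 of the 6 were called in that contrast. Their part in the Coq8a levels was not tested, and in bulk muscle fewer cells of a type and less RNA per cell cannot be told apart.

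**Figure D5:**
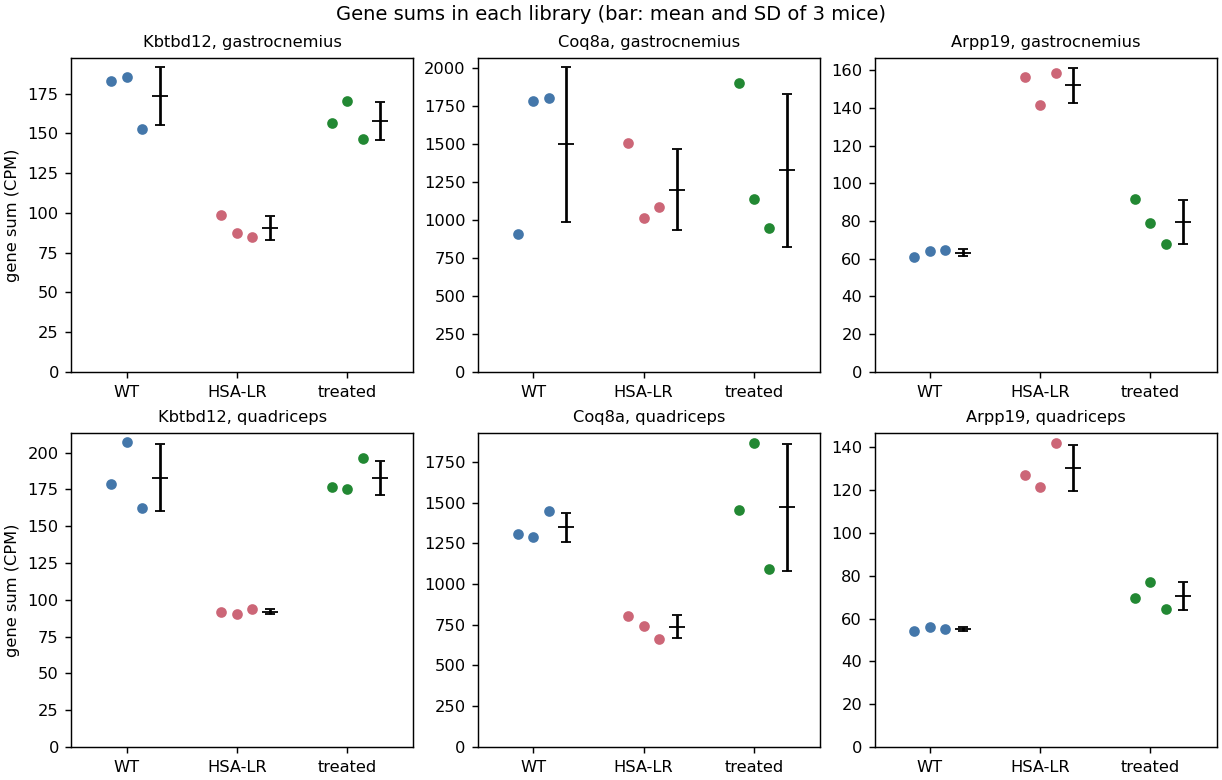
Gene sums (CPM, linear axis) of the 3 genes in each library, with the mean and SD of 3 mice. HSA-LR mice are lower for Kbtbd12 in both muscles, higher for Arpp19 in both, and lower for Coq8a in the quadriceps, where WT mice are at 1290 to 1448 CPM and HSA-LR mice at 664.1 to 806.6 CPM.

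In treated against HSA-LR mice, tested by edgeR's quasi-likelihood test, Kbtbd12 rose by 0.97 on the log2 scale in the gastrocnemius (adjusted p = 0.00279) and by 1.15 in the quadriceps (adjusted p = 0.00205). Arpp19 fell by 0.78 (adjusted p = 0.00335) and by 0.74 (adjusted p = 0.00708). Coq8a changed by 0.29 in the gastrocnemius (adjusted p = 0.596) and rose by 1.15 in the quadriceps (adjusted p = 0.00464). Of all genes tested, 10% were called in the gastrocnemius and 13.8% in the quadriceps.

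None of the 3 genes was called by edgeR in treated against WT mice, where 1.04% and 1.41% of genes were. Arpp19 was the only one with an unadjusted p under 0.05. Its log2 difference was 0.41 in the gastrocnemius (adjusted p = 0.107) and 0.39 in the quadriceps (adjusted p = 0.182). DESeq2 called it in both (adjusted p = 0.00333 and 0.0518). Kbtbd12 differed by -0.05 and 0.04, and Coq8a by -0.10 and 0.16.

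The muscles were compared in 1 fit of the 18 libraries. Unless the mouse was a block, both libraries of a mouse counted as separate there, although they come from the same animal. Between WT quadriceps and WT gastrocnemius, none of the 3 gene sums was called by edgeR, with log2 differences of 0.09 for Kbtbd12, -0.13 for Coq8a and -0.18 for Arpp19, and none had an unadjusted p under 0.05. Of all genes, 0.297% were called, 48 of them, and 305 with the mouse as a block. Of 84 bins, Arpp19 bin 015 was the one called, 1.66 lower in the quadriceps (adjusted p = 0.00160), against 0.0432% of all bins. This difference was -0.02 without WT mouse 3 (adjusted p = 1), so it rests on that mouse.

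Whether the response to treatment differed between the muscles was tested as an interaction. None of the 84 bins was called by diffSpliceDGE, with 2 at an unadjusted p under 0.05, and 0.0155% of all bins were called. With the mouse as a block the count over all bins was 123 in place of 28, and still no bin of the 3 genes was called. The lead bins gave interaction terms of -0.46 for Kbtbd12, -0.27 for Coq8a and 0.12 for Arpp19 on the log2 scale, each with an adjusted p of 1. The difference between muscles in the Arpp19 position is not shown by this test.

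Genes of the pathways of the 3 proteins were counted in the gene fit, in which macrophage, Schwann cell, fibroblast and endothelial markers also differed between HSA-LR and WT quadriceps, as given above. Of 17 BTB-kelch and CUL3 ligase genes tested, 2 were higher and 0 lower in HSA-LR against WT gastrocnemius, and 3 were higher and 2 lower in the quadriceps, where 15.5% and 20.3% of all genes were called. Klhl41, which stabilises sarcomere proteins, was 0.76 higher on the log2 scale (adjusted p = 0.0417) and 0.97 higher (adjusted p = 0.00150), opposite in sign to Kbtbd12. Klhl30 was 0.86 and 1.09 higher (adjusted p = 0.0190 and 0.00371). Both fell on treatment, Klhl41 by 0.78 and 0.74 and Klhl30 by 1.20 and 0.88, and these were the 2 list genes called in each muscle. Genes named from this list and those below were picked by their p in HSA-LR against WT gastrocnemius. Part of a return on treatment can follow from that pick. In treated against HSA-LR mice, 10% and 13.8% of all genes were called. The median log2 change of the list in HSA-LR against WT was -0.12 and -0.03, against -0.01 and 0.01 over all genes.

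Among 11 coenzyme Q genes tested, 0 were higher and 1 was lower in HSA-LR gastrocnemius, and 0 were higher and 2 lower in the quadriceps. Over all genes, 15.5% and 20.3% were called. Coq10a, which codes for a coenzyme Q binding protein, was 0.40 and 0.49 lower (adjusted p = 0.0899 and 0.0553). Coq5, the methyltransferase of the pathway, was 0.33 lower in the quadriceps (adjusted p = 0.0457) and -0.16 in the gastrocnemius (adjusted p = 0.471). Coq10a rose by 0.45 and 0.55 on treatment. The list medians in HSA-LR against WT were -0.08 and -0.17.

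Of 9 Greatwall and PP2A-B55 genes tested, 0 were higher and 1 lower in HSA-LR gastrocnemius, and 1 higher and 1 lower in the quadriceps. Over all genes, 15.5% and 20.3% were called. Mastl, which codes for the Greatwall kinase that acts on ARPP19, was 1.32 and 1.27 lower (adjusted p = 0.0906 and 0.0414). Its change on treatment, 0.62 and 0.52, did not pass the test (adjusted p = 0.448 and 0.376). Ppp2r1b, a scaffold subunit of PP2A, fell on treatment by 0.82 and 1.57 (adjusted p = 0.0198 and 0.0249). The list medians in HSA-LR against WT were -0.12 and -0.03. In treated against WT mice, no gene of the 3 lists was called by edgeR in either muscle. In the gastrocnemius, 3 kelch, 1 coenzyme Q and 1 Greatwall list genes had an unadjusted p under 0.05, and in the quadriceps 3, 0 and 2. DESeq2 called 1 kelch list gene in the gastrocnemius and none of the lists' genes in the quadriceps.

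Bins of other genes followed the lead bins closely over the 18 libraries, among 110993 bins of at least 50 counts on average. Likeness was Pearson's r of the log2 share and is a description, since the points share groups, mice and libraries. Kbtbd12 bin 007 was most like Stim1 bin 021 (r = 0.979), Camk2b bin 014 (r = 0.970) and Ldb3 bin 001 (r = 0.969). The mean share of Stim1 bin 021 was 0.349% in WT, 1.08% in HSA-LR and 0.427% in treated libraries. Coq8a bin 033 was most like Spcs2 bin 004 (r = 0.975), Clcn1 bin 010 (r = 0.971) and Vamp1 bin 006 (r = 0.963). Clcn1, the muscle chloride channel, had 0.101%, 1.16% and 0.159% in that bin. Arpp19 bin 015 had looser partners, Efcab2 bin 007 (r = 0.896), 1700025G04Rik bin 010 (r = 0.892) and Park7 bin 007 (r = 0.883). Between the lead bins themselves, r was 0.924 for Kbtbd12 and Coq8a, 0.797 for Kbtbd12 and Arpp19 and 0.793 for Coq8a and Arpp19.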

How the data were processed

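Polyadenylated RNA of 18 muscle libraries was sequenced with a stranded kit. The authors deposited raw read counts per exon bin, not normalized, and the submitters' processing notes name CASAVA, HISAT, featureCounts 1.5.0 and GRCm38. Library totals were 98916844 to 143135976 counts, which sets the counting error, and entries that name no gene (2.82% to 4.14%) were left out. The bins matched the flattened GENCODE M21 annotation, from which transcripts and sequences were taken.

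Bins were tested within each muscle with the diffSpliceDGE function and gene sums with the quasi-likelihood test of edgeR 4.0.16 (R 4.3.3). Fits used the 9 libraries of a muscle, with TMM. The filter was edgeR's filterByExpr, with a minimum count of 10 and a minimum total of 15. It did not ask for 10 counts in every library. Lead bins with fewer than 10 counts in WT libraries, but more in HSA-LR libraries, were therefore tested. Muscles were compared in a fit of the 18 libraries. Benjamini-Hochberg adjustment ran over all bins or genes, and an adjusted p under 0.1 was called. Shares were set against each other by exact, two-sided permutation in scipy 1.17.1. The members, lists and tests were chosen with earlier results of these data known. All bins of the 3 genes, the 3 bins most like each lead bin over bins of at least 50 counts on average, and at most 4 genes of each pathway list with the smallest p in HSA-LR against WT gastrocnemius could be named. Genes of the lists outside the files used here were not analysed.

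Replicate numbers were checked as pairs by the deviations of 13507 genes from their group means. Between the muscles, all 9 pairs of libraries correlated (r = 0.112 to 0.645), as they come from the same mice by their numbers. Of 18 libraries, 15 correlated most with their own number in the other muscle of their group. Within a muscle, r between groups took both signs (-0.325 to 0.311), so numbers did not pair the groups, although the highest values overlapped those between muscles. Alternatives were each mouse left out, the block, other filters, DESeq2 1.42.0 and its size factors, limma 3.58.1, a fit of 2 groups, the largest bin of a gene, and log2 or flank-based shares. Figures were drawn with matplotlib 3.10.9. The fits were tested on simulated data.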

Additional observations from a re-analysis of the deposited data

How the results depend on the processing

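The falls of the 3 lead bins in treated against HSA-LR mice kept their direction and their call in both muscles when any mouse was left out, with the replicate block, the DESeq2 size factors, the fit of 2 groups and limma. The HSA-LR libraries in these fits also chose the bins, so part of each fall follows from the choice. A minimum of 10 counts in every library removed the lead bins from the test, except Arpp19 bin 015 in the gastrocnemius. Depth limits the Coq8a and Kbtbd12 bins, which hold at most 13 counts in a WT library.

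On a log2 scale the positions of treated mice were 18.8% and 26.5% for Kbtbd12 (gastrocnemius, quadriceps), 2.79% and 11.7% for Coq8a and 24.4% and 58.7% for Arpp19. Leaving out each mouse gave -28.8% to 24.9% for Arpp19 in the gastrocnemius, the highest without WT mouse 3, and 1.70% to 3.22% for Kbtbd12 in the quadriceps.

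Within a muscle the replicate numbers did not pair the groups (r = -0.325 to 0.161 in the gastrocnemius, -0.231 to 0.311 in the quadriceps). With the replicate block, the change in treated against WT gastrocnemius was -0.0156 for Coq8a bin 033 and 0.15 for Arpp19 bin 015, neither called. The block gave 921 genes for treated against HSA-LR and 63 for treated against WT in the gastrocnemius, and 90 genes, 437 bins (against HSA-LR) and 112 bins (against WT) in the quadriceps. Between muscles, where the mouse pairs the libraries, it gave 123 bins for the response and 305 genes for WT quadriceps against gastrocnemius, and it changed no call on the lead bins or gene sums. The block ended the call of Kbtbd12 bin 016 and added Coq8a bin 034 in treated against HSA-LR quadriceps.

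With limma the Arpp19 bin 015 change in treated against WT gastrocnemius was 0.46, and 1051 (gastrocnemius) and 812 (quadriceps) bins were called against HSA-LR and 95 against WT in the quadriceps. DESeq2 called Arpp19 in treated against WT gastrocnemius (0.42) and quadriceps (0.38), with 529 and 748 genes called in all, and edgeR with DESeq2 size factors also called it in the gastrocnemius (0.42, adjusted p = 0.0984). The fit of the 2 groups gave 56 and 120 genes against WT, and the largest bin of each gene 133 in the quadriceps.

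Leaving out each mouse, log2 changes in treated against WT mice ranged from -0.057 to 0.160 for the Kbtbd12 sum in the quadriceps, -0.40 to 0.062 and -0.033 to 0.30 for the Coq8a sum (gastrocnemius, quadriceps), and 0.34 to 0.48 and 0.33 to 0.42 for the Arpp19 sum. The Arpp19 sum was called without treated mouse 3 in the gastrocnemius (adjusted p = 0.0525) and without HSA-LR mouse 3 in the quadriceps (adjusted p = 0.0660). Coq8a bin 033 ranged from -0.47 to 0.24 and -0.049 to 1.52, and Arpp19 bin 015 in the gastrocnemius from -0.51 to 1.33. The Coq8a sum in WT quadriceps against gastrocnemius ranged from -0.35 to 0.013 and Arpp19 bin 015 from -2.67 to -0.016. The response by muscle ranged from -1.75 to 0.52 for Coq8a bin 033 and from -0.011 to 0.27 for Arpp19 bin 015. Kbtbd12 bin 016 between WT muscles ranged from -0.078 to 0.039.

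Over the whole data, leaving out each mouse gave 270 to 716 bins and 428 to 1877 genes for treated against HSA-LR gastrocnemius, 158 to 372 bins and 691 to 2784 genes in the quadriceps, 47 to 195 and 50 to 306 genes against WT (gastrocnemius, quadriceps), and 26 to 226 bins against WT in the quadriceps. It gave 34 to 75 bins and 5 to 35 genes for WT quadriceps against gastrocnemius and 16 to 67 bins for the response. Where no value above shows the cause of a change, the cause was not tested.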
